A study of Mus musculus with 7 samples.

Results

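Open chromatin was examined at 5 homeobox genes that are known for their work in pancreatic beta cells, Pdx1, Nkx6-1, Nkx2-2, Mnx1, and Pax4. ATAC-Seq, in which the Tn5 transposase cuts and tags DNA that is not packed away by nucleosomes, was used to profile 3 endocrine cell types of the mouse islet, the glucagon-producing alpha, the insulin-producing beta, and the somatostatin-producing delta cells. For each gene, every peak that overlapped the gene body in the GENCODE vM21 annotation or the 50 kb on either side was taken from the peak lists of 7 libraries, and this stretch is called its window. Peaks that shared at least 1 bp across libraries were merged into regions. The 5 windows held 160 of 834695 regions. Calls from 2 or more libraries supported 45 of them, out of 133698 such regions in the genome. The 5 genes are a selection from 21911 protein-coding genes, and all 5 were matched by symbol.

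The 2 alpha, 3 beta, and 2 delta libraries came from healthy mice carrying mIns1-H2b-mCherry, Rosa-LSL-YFP, and a Cre. Alpha cells were isolated from animals with Gcg-Cre and delta cells from animals with Sst-Cre, in both cases as YFP-positive cells, whereas beta cells were recognised by the red nuclear protein under control of an Ins1 promoter and, by the study's sorting gates, collected from both crosses with cells of both colours left out. A beta library therefore carries either Cre, and a cell enters a group through the activity of one hormone promoter. All groups share the mCherry and YFP transgenes, cells of several animals of 1 sex were pooled for each library, and no age or treatment is given in the labels. Alpha 1, beta 2, and delta 1 were female and the other 4 libraries male. By the study, different cell types were taken from the same animals, so a beta library may share its animals with an alpha or a delta library. The labels do not say which, and the tests below treat the libraries as independent. The file names of the 3 beta libraries carry alpha or delta, which may stand for the cross rather than the sorted cells. Their labels were followed.

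The lists differed in length, which is no measure of read depth. They held 75860 to 518503 distinct peaks, of which between 4.996% and 54.9% reached a -log10 q of 2, where q is the false discovery rate that the authors' peak caller gave a peak in its own library. Beta 1 stands apart with both the longest list and the lowest share, and by the study's library table it has the fewest unique reads, so counts are also given at a -log10 q of 2 or more and without beta 1. In that table the beta libraries used here and delta 2 all have fewer unique reads than both alpha libraries and delta 1. A -log10 q grows with depth, so its order across libraries may follow these reads. An absent call in one of these lists does not show closed chromatin, because no read depth is known outside the peaks. Both alpha libraries and beta 1 carry one sequencing lane in the file names and the other 4 libraries another, so alpha and delta cells cannot be told apart from their lanes. At the hormone genes, Gcg had a peak at its 5′ end in both alpha libraries (percentiles 94.1 and 91.6 of their lists), in no beta library, and in delta 2. Ins1 had one in all 7 libraries, and that of Ins2 was called in beta 3 only. Sst had one in both delta libraries at percentiles of 17.1 and 14.4, and in beta 1 at 95.5. Of 4 acinar markers, Ptf1a was called in both alpha libraries and Ctrb1 in beta 1, and Cpa1 and Cela1 in none. Of the duct markers, Cftr was called in all 7 libraries, at percentiles of 11.8 to 90.9, and Krt19 in none. The Cftr peak reached a -log10 q of 2 in 2 libraries. Of the endothelial and immune markers, Pecam1 was called in alpha 2 and Cd68 in beta 1, and Cdh5 and Ptprc in none. These lists come from bulk sorts, in which fewer cells with an open site and a less open site per cell cannot be told apart.

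Homeobox genes encode transcription factors whose homeodomain, a fold of helices, reads short DNA sites that often hold the letters TAAT. Pdx1 is needed to form the pancreas and later binds the insulin genes in beta cells. Nkx6-1 and Nkx2-2 act below it, Nkx6-1 keeping beta cells in their identity and Nkx2-2, which is also used by other endocrine cells of the islet, holding back genes of alternative fates. Mnx1 (also called Hb9) works in the early pancreatic bud and again in maturing beta cells, and Pax4 directs endocrine progenitors towards the beta and delta fates and is little used in the adult. Accessible promoters and distal elements are the sites at which such genes are themselves controlled.

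The regions that the results turn on are shown first. Each is the 200 bp around the summit of its strongest peak, read from GRCm38 on the strand of the gene, 5′ to 3′, with every TAAT core and its reverse complement ATTA in capitals. They are named by the distance of the region's centre from the 5′ end of the gene, with minus for upstream. The first pair lies upstream of Pdx1 at chr5:147264075-147264274 and chr5:147267523-147267722 on the plus strand, in introns of the antisense transcript Plut, and is shown because its calls differed between libraries.
Pdx1 -5.74 kb: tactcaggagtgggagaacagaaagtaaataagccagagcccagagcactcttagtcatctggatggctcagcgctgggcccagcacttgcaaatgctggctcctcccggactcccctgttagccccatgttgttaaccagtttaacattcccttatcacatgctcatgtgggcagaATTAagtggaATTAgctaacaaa
Pdx1 -2.36 kb: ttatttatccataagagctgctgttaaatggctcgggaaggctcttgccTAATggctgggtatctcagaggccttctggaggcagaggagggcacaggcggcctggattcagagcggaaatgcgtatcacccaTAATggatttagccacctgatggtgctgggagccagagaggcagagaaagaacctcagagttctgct
The next pair is shown because its calls were present in every library. One lies just before Nkx6-1 at chr5:101665326-101665525 and the other far upstream of Nkx2-2 at chr2:147231129-147231328, in an intron of the antisense transcript Nkx2-2os, both on the minus strand.
Nkx6-1 -0.36 kb: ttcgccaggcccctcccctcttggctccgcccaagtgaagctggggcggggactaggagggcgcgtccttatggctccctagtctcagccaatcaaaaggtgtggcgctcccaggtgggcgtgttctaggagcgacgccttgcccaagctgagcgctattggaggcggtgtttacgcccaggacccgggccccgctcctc
Nkx2-2 -36.94 kb: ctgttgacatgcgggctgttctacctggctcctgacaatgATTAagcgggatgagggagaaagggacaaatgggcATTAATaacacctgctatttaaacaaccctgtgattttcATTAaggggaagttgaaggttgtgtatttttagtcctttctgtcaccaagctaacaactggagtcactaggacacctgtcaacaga
The last pair belongs to Mnx1, where the delta libraries held the lowest ranks. It lies at chr5:29478660-29478859, at the promoter, and at chr5:29467870-29468069, downstream of the gene and in no annotated gene, both on the minus strand. The promoter stretch is centred on the summit of beta 1 and lies outside the peak of alpha 2.
Mnx1 -0.16 kb: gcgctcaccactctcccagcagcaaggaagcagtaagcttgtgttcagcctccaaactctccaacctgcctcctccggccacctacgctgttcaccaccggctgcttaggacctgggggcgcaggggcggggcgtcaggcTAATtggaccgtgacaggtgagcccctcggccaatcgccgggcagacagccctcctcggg
Mnx1 +10.40 kb: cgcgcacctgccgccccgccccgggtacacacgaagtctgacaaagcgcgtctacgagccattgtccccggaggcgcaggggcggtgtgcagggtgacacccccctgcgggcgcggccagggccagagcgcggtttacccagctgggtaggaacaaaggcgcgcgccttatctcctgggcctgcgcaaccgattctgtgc
The Nkx2-2 stretch holds 4 TAAT cores, each Pdx1 stretch 2, the Mnx1 promoter 1, and the other stretches none. Among all 45 regions of the windows, 19 (42.2%) held TAAT within 200 bp around the summit, against 60.8% of the 133698 regions of the genome. The longer homeodomain site TTAATTA was found in none of the 45 and in 2.84% of all. AAGTG, the core read by NKX2 factors, was found in 37.8% against 38.6%, the E-box CANNTG in 68.9% against 69.5%, the forkhead site TGTTTAC in 2.22% against 4.92%, and the RFX core GTTGCC in 6.67% against 9.21%, all on both strands, and AAGTG and CANNTG can overlap each other. The windows are also richer in G and C, with a median of 55.5% in these stretches against 48%. The 5 genes were chosen by name, so these shares describe their surroundings and carry no test.

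Promoters were compared by the TSS peak, meaning one that lies no more than 1 kb from where a gene starts, and by its percentile, its rank by -log10 p in percent of its own list, with tied peaks at their mean rank. A gene with no such peak was set to 0. Ranks are not fully comparable between lists of unlike length, because weak peaks rank high in the long list of beta 1. There a -log10 p of 3.39 stood at percentile 85.6, whereas one of 3.91 stood at 45.3 in beta 3. Over all protein-coding genes, a TSS peak was found in 2 or more alpha replicates for 56.8%, in 2 or more beta replicates for 56.1%, and in 2 or more delta replicates for 54.1%, in every library for 41.5%, and in no library for 17.3%. Pdx1, Nkx6-1, Nkx2-2, and Mnx1 each had one in 2 or more replicates of all 3 cell types, and Nkx6-1, Nkx2-2, and Mnx1 in all 7 libraries. Pdx1 lacked one in beta 2 only. Pax4 had none in any library.

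Nkx6-1 (chr5:101658139-101664996, minus strand) had the highest-ranked promoter of the 5 in every library except delta 1, where Nkx2-2 was higher. Its TSS peak stood at percentiles of 95.0 and 93.2 in the alpha libraries, 98.9, 92.7, and 97.4 in the beta libraries, and 92.4 and 90.8 in the delta libraries. All values lie above 90, with both delta libraries the lowest of the 7 and the beta libraries spread around the alpha ones (exact permutation test without direction over 210 assignments of the libraries, p = 0.2, Benjamini-Hochberg adjusted p = 1 over 14902 genes). The region 0.36 kb upstream behind it was called with a -log10 q of 19.0 and 19.96 in alpha, 8.71, 8.37, and 27.95 in beta, and 14.2 and 17.01 in delta cells. A TSS peak that reached a -log10 q of 2 in every library was found for 31.1% of protein-coding genes, and Nkx6-1 is the member among them. The promoter of this regulator of beta cell identity was thus called at high rank in alpha and delta cells as well. A second region at 0.22 kb into the gene was called in alpha 1 and delta 1 only, and another at 1.54 kb, in an exon, in both alpha libraries, beta 3, and delta 1.

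Pdx1 (chr5:147269959-147275848, plus strand) had a TSS peak at percentiles of 60.7 and 78.0 in alpha, 87.6, no call, and 85.9 in beta, and 81.5 and 64.2 in delta cells. Without a call in beta 2, the beta mean of 57.8 ± 50.1 (SD, n = 3) is no guide to the 2 other libraries, which have the highest percentiles of the 7. By -log10 p, however, the peak of beta 1 was the weakest of those called, with 3.69 against 4.43 in alpha 1 and 8.88 in beta 3. The means were 69.3 ± 12.2 (SD, n = 2) in alpha and 72.8 ± 12.2 (SD, n = 2) in delta cells, and the test gave p = 0.990 (exact permutation test, adjusted p = 1). Leaving beta 2 out turned the difference between beta and the other libraries from -13.2 to 15.7 percentile points. The test across the 3 cell types then gave p = 0.267 (exact permutation test), and the difference itself was not tested. The -log10 q of the TSS peak reached 2 in 5 libraries and was 1.101 in beta 1.

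Nkx2-2 (chr2:147177546-147194243, minus strand) had its TSS peak at percentiles of 80.5 and 87.0 in alpha, 98.6, 37.1, and 75.9 in beta, and 92.8 and 78.6 in delta cells. Beta 2 is again the lowest. Beta 1 is the highest by percentile but not by -log10 p, with 10.4 against 18.1 in delta 1. Mean percentiles were 83.7 ± 4.57 (SD, n = 2), 70.5 ± 31.1 (SD, n = 3), and 85.7 ± 10.1 (SD, n = 2), all inside the range of the beta libraries. The test across the 3 cell types gave p = 0.848 (exact permutation test, adjusted p = 1). The calls rest on a region 0.80 kb upstream that was present in all libraries except beta 2, with a -log10 q of 2.82 to 15.0, and the adjoining region at the start itself was present in the same 6. In beta 2 the TSS peak is a separate call inside the gene with a -log10 q of 1.82. The annotated 5′ end is that of the most upstream transcript. Near starts of further Nkx2-2 transcripts inside the gene and the start of the antisense gene 6430503K07Rik, a region at 7.82 kb was called in all 7 libraries and one at 6.88 kb in 6, beta 3 being the exception. With any transcript start counted, the difference between beta and the other libraries shrank from -14.2 to -0.63 percentile points.

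Mnx1 (chr5:29473034-29478470, minus strand) was the member with the smallest p for a difference in TSS rank between cell types. Its percentiles were 65.6 and 67.3 in alpha, 98.5, 69.0, and 87.0 in beta, and 59.9 and 35.2 in delta cells. By -log10 p, beta 2 stood below alpha 2, with 5.26 against 5.48, and both delta libraries stood lowest, with 4.21 and 4.34. By percentile, every beta library lies above every alpha library and every alpha library above both delta libraries. Means were 66.4 ± 1.15 (SD, n = 2), 84.8 ± 14.9 (SD, n = 3), and 47.5 ± 17.5 (SD, n = 2), and the test across the 3 cell types gave p = 0.0762 (exact permutation test without direction, smallest possible p = 0.00952) and an adjusted p of 1. Both delta libraries lay below every other library for Mnx1 and Nkx6-1, as for 294 of all genes tested (1.97%). The pairwise differences were 18.4 percentile points for beta over alpha (two-sided exact permutation test, p = 0.2), 37.3 for beta over delta (exact p = 0.2), and 18.9 for alpha over delta (exact p = 0.333), and with 2 and 3 libraries these tests cannot go below 0.1, 0.1, and 0.333. When libraries were exchanged only within their sex, p was 0.0278, the smallest that design allows (permutation test over 72 assignments), and when exchanged only within their lane it was 0.0556, likewise the smallest (exact permutation test over 18 assignments). Across all genes, 480 of 14902 (3.22%) had an unadjusted p under 0.05 and none an adjusted one.

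**Figure D1:**
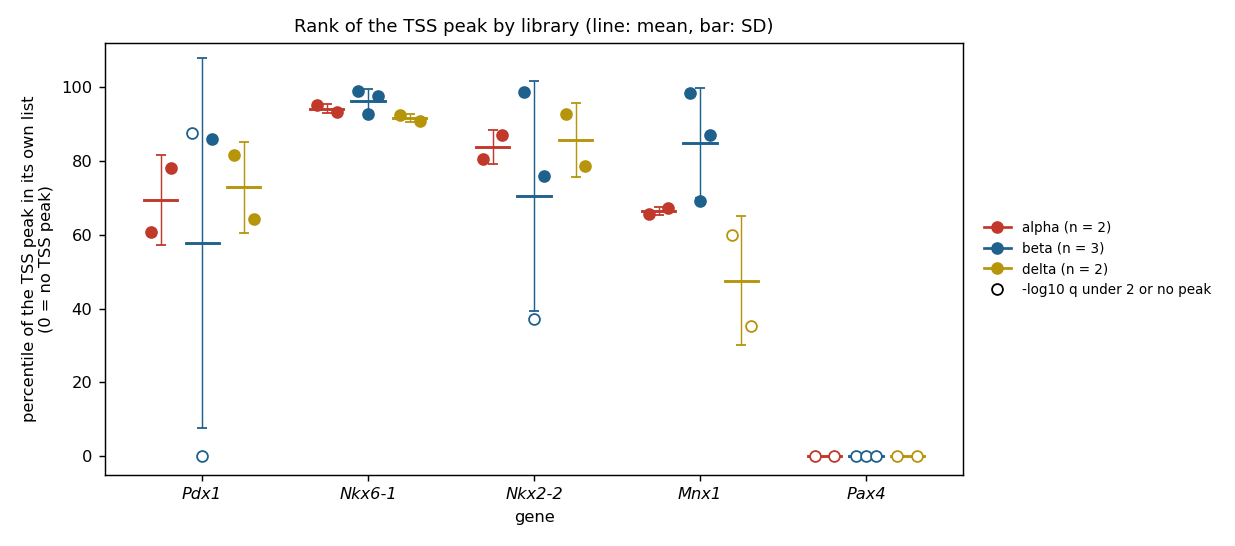
Percentile of the TSS peak within its own peak list (vertical axis, 0 to 100) for the 5 genes (horizontal axis). Each point is a library, coloured by cell type, filled where the -log10 q reaches 2 and open where it is lower or no peak was called, with lines for means and bars for the SD. Nkx6-1 sits above 90 in every library, Mnx1 falls from beta to alpha to delta cells, Pdx1 has no peak in beta 2, and Pax4 stays at 0.

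The Mnx1 promoter consists of separate regions, and their calls differed between cell types. The region at the start itself, 0.16 kb upstream, was called in alpha cells with a -log10 q of 2.16 and 3.04, in beta cells with 6.70, 2.57, and 0.958, and in neither delta library. It was 1 of 45 regions open in alpha and beta cells and absent from both delta libraries, a class that holds 0.660% of the regions of the genome. A region 0.98 kb upstream was called in beta 2 and beta 3 with a -log10 q of 2.04 and 6.62, in both delta libraries with 1.91 and 1.93, and in neither alpha library nor beta 1. It was the only region of the windows open in beta and delta cells and absent from alpha cells (1.41% of all). The delta TSS calls of Mnx1 therefore rest on the upstream region alone, the rank of beta 3 is also that of the upstream region, and beta cells are the only group with calls in both. The delta summits lie at -1023 and -1048 bp from the 5′ end, so these peaks count as TSS peaks by their nearer edge.

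Further regions of the Mnx1 window were read in the same way. The region 10.40 kb downstream of the start, beyond the end of the gene, was called in all 7 libraries, with a -log10 q of 4.52 and 6.92 in alpha, 3.21, 1.82, and 6.62 in beta, and 0.199 and 0.795 in delta cells. The delta values are the lowest of the 7. Counting only peaks that reached a -log10 q of 2, the window held 8 and 5 in alpha, 3, 3, and 4 in beta, and 3 and 0 in delta cells, so the lowest number is that of delta 2 and delta 1 equals beta 1 and beta 2. Both this region and the promoter region then belong to those open in alpha and beta cells and absent from delta cells, which make up 0.623% of all regions at that threshold. The neighbouring gene Nom1, a nucleolar protein gene whose promoter lies in the same window, had a TSS peak in delta 1 at a percentile of 92.2 and in delta 2 at 35.2, and none in beta 3, so the low values of delta 2 are not limited to Mnx1. Delta 1 held the region 5.91 kb upstream of Mnx1 with a -log10 q of 10.5, the highest of the 6 libraries that held it, and the region 18.99 kb upstream with 5.35, the highest of 4, and delta 2 lacked both. Without delta 2 the Mnx1 test gave p = 0.25, and without delta 1 p = 0.0333 (exact permutation tests, unadjusted).

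Pax4 (chr6:28442334-28449353, minus strand) lacked a TSS peak throughout, as was the case for 17.3% of protein-coding genes. No region of 2 or more libraries lay inside the gene. The 3 regions of its window that were called in every library belong to neighbours with broad housekeeping roles. They lie at a start of Snd1, a nuclease involved in RNA handling, with a -log10 q of 30.9 to 75.01, at Gcc1, a Golgi protein gene, with 15.7 to 71.4, and at the promoter of Arf5, a small GTPase, with 1.66 to 16.4. The nearest region called in at least 5 libraries that belongs to no annotated gene was 11.30 kb upstream of Pax4. It was called in both alpha libraries with a -log10 q of 1.13 and 3.15, in beta 1 and beta 3 with 2.34 and 7.14, and in delta 2 with 3.14.

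Base composition around the 5′ ends was read as well. Within 500 bp on either side, the ratio of observed to expected CpG, which is high in CpG islands, was 0.849 for Nkx6-1, 0.796 for Mnx1, 0.624 for Nkx2-2, 0.563 for Pdx1, and 0.0517 for Pax4. The median over protein-coding genes was 0.552. It was 0.757 for genes with a TSS peak in every library and 0.183 for genes with none, and Pax4 is below the latter.

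**Figure D2:**
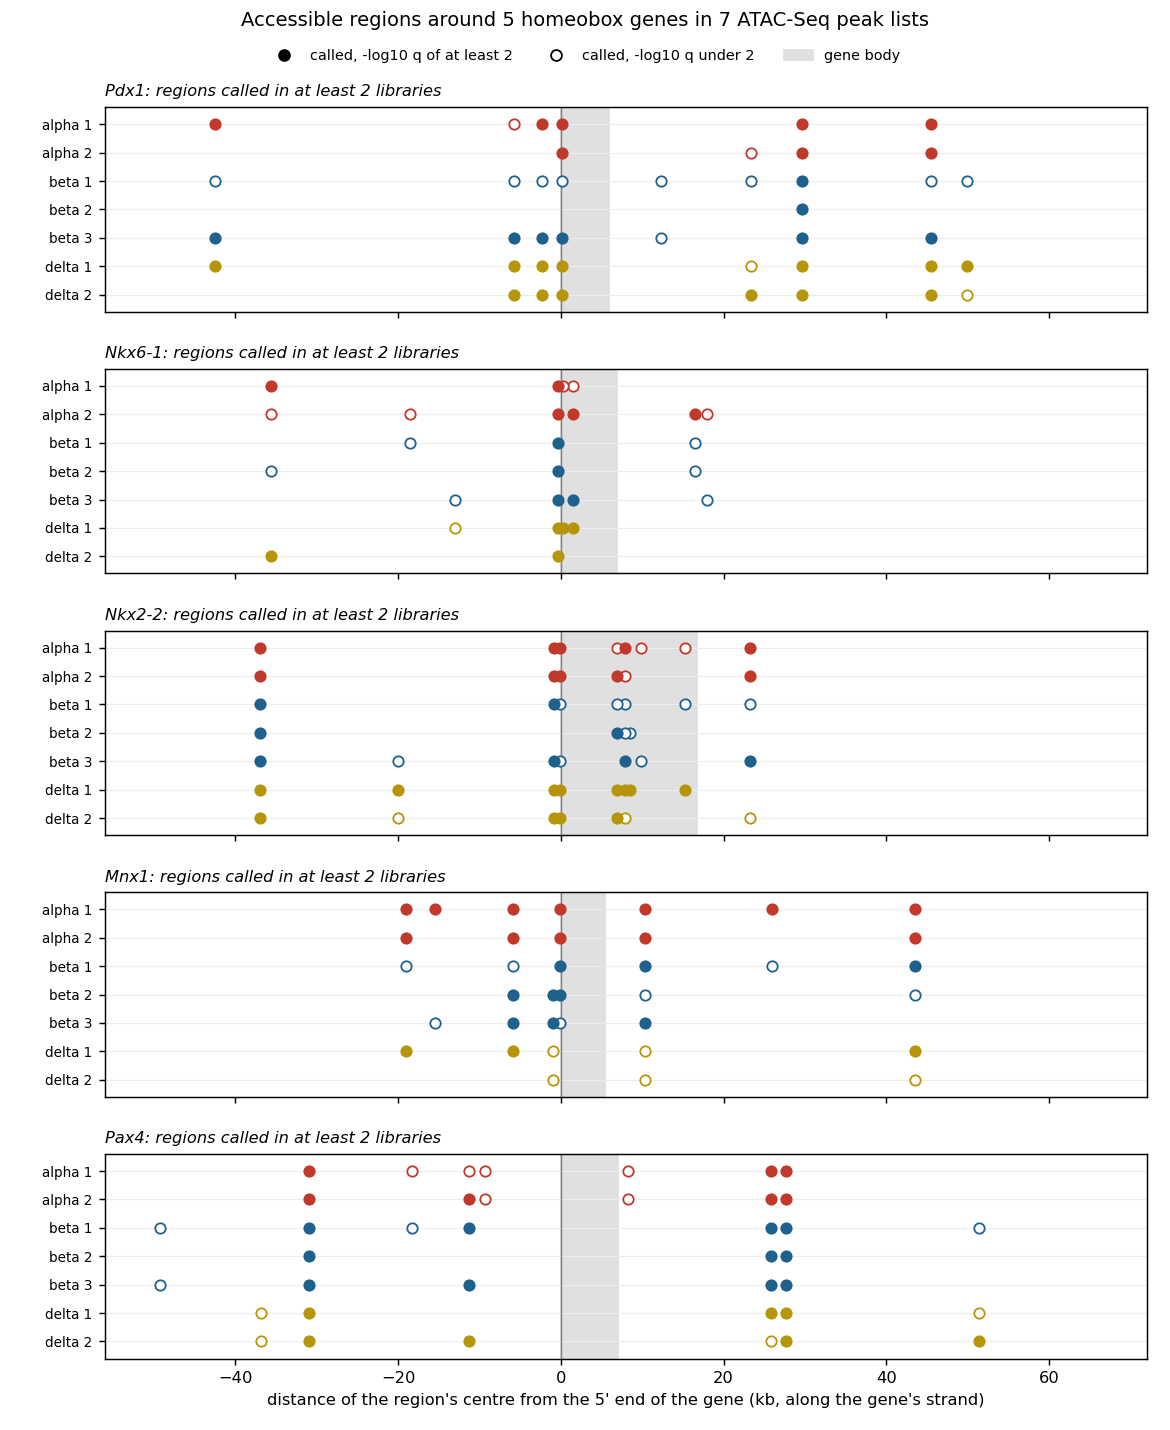
Regions of 2 or more libraries in the 5 windows, by distance of their centre from the 5′ end of the gene in kb along its strand (horizontal axis) and by library (vertical axis). Filled points reach a -log10 q of 2, open points a lower one, colours mark cell types, and the grey band is the gene body. Columns with a point in all 7 rows occur in every window, and the row of beta 2 holds a single point in the window of Pdx1.

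The distal regions of Pdx1 split the libraries within cell types. The region 5.74 kb upstream was called in delta 1 and delta 2 with a -log10 q of 5.73 and 9.51, in beta 1 and beta 3 with 1.76 and 2.05, in alpha 1 with 0.278, and in neither alpha 2 nor beta 2. The region 2.36 kb upstream was called in the same 5 libraries, at 9.21 and 4.89 in delta, 1.97 and 4.90 in beta, and 2.81 in alpha 1. Delta cells thus held both upstream regions in every replicate, beta cells in 2 of 3, and alpha cells in 1 of 2. By -log10 q the highest value at each was that of a delta library, but by percentile it was that of beta 1, with 94.7 against 83.8 and 82.0 in the delta libraries at 5.74 kb and 95.0 against 88.5 and 68.4 at 2.36 kb. They were singled out after their values had been seen, and neither is called in one cell type alone. At a -log10 q of 2, the region at 5.74 kb is left in both delta libraries and beta 3 and that at 2.36 kb in both delta libraries, beta 3, and alpha 1.

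In beta 2, the only shared region in the Pdx1 window was the one 29.61 kb downstream of the start, which was called in all 7 libraries, with a -log10 q of 20.9 and 8.82 in alpha, 3.52, 2.90, and 2.97 in beta, and 9.89 and 6.50 in delta cells. It lies between Pdx1 and Cdx2, a related homeobox gene of the gut, whose own TSS was called in beta 3 alone. By percentile the beta libraries stood at 97.1, 72.1, and 76.3 and the others between 74.5 and 95.6, so the lower q of beta cells is not a lower rank in all of them. The window of Pdx1 held 9 and 4 distinct peaks in alpha, 21, 2, and 14 in beta, and 11 and 8 in delta cells. Beta 2 had 0.220 per 10000 peaks of its list and beta 3 1.35, the lowest and the highest of the 7. The beta libraries thus lie further apart than the means of the cell types, which is a description and was not tested. The test across the 3 cell types gave p = 0.743 (exact permutation test, adjusted p = 1 over 21911 genes).

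At Nkx2-2, the region 36.94 kb upstream was called in every library with a -log10 q of 10.1 and 14.2 in alpha, 2.34, 3.04, and 3.25 in beta, and 8.33 and 9.15 in delta cells. All beta values lie below all others on this scale, which grows with the depth of a library. As percentiles they were 95.4, 76.9, and 77.1 in beta, 89.7 and 90.1 in alpha, and 87.7 and 81.3 in delta cells, and here the groups overlap. A region 20.07 kb upstream was open in delta cells (-log10 q of 4.14 and 1.93) and absent from alpha cells, with a call of 1.43 in beta 3, a pattern of 5 regions in all windows (11.1%, against 5.13% of all regions).

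**Figure D3:**
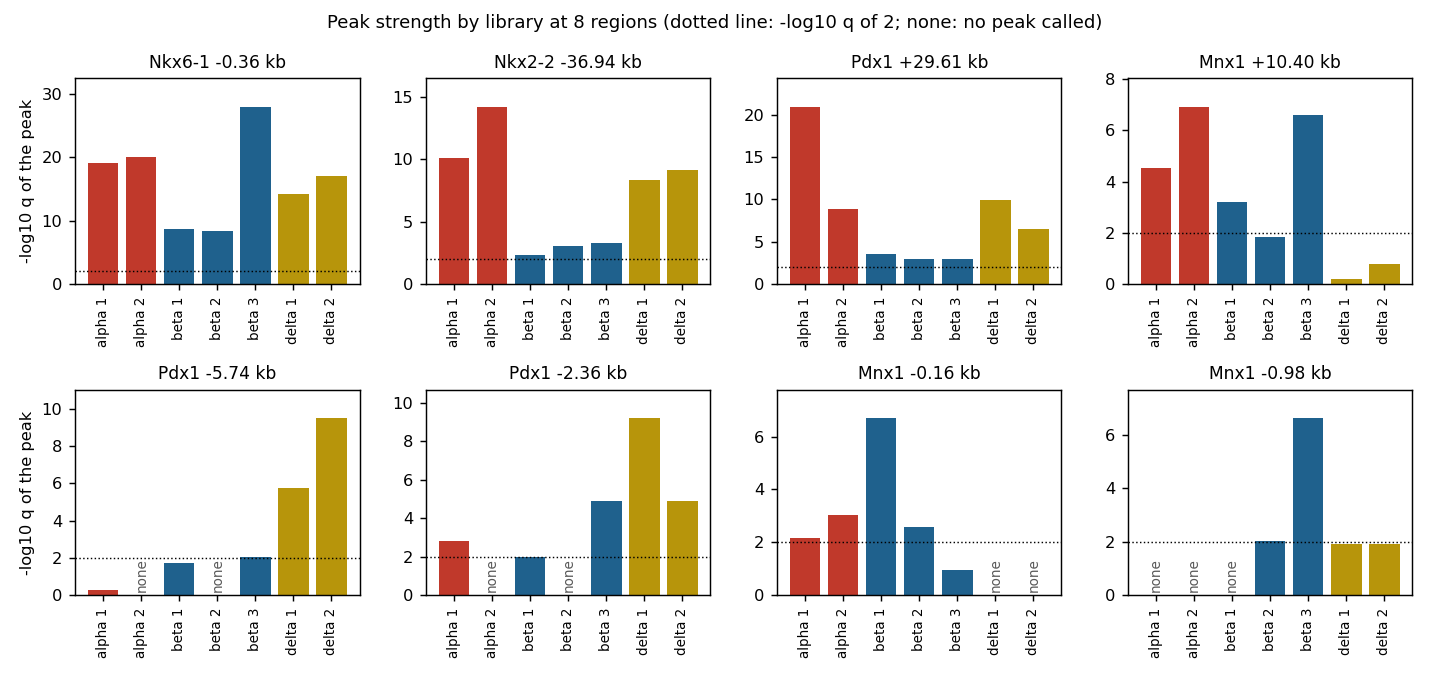
The -log10 q of the peak (vertical axis, a separate scale in each panel) in the 7 libraries (horizontal axis) at 8 regions, named by gene and distance from its 5′ end. The dotted line marks a -log10 q of 2 and "none" a library with no call. The upper row shows regions called in all 7 libraries, and the lower row the 2 regions upstream of Pdx1, each highest in a delta library on this scale though not by percentile, and the 2 promoter regions of Mnx1, the first absent from delta and the second from alpha cells.

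Over the 5 windows, 23 of 45 regions (51.1%) were open in alpha cells, meaning that 2 or more replicates held it, against 34.0% of all regions. In beta cells 25 (55.6%) were open, against 42.1%, in delta cells 22 (48.9%), against 33.6%, and 8 (17.8%) were called in every library, against 13.3%. When only peaks reaching a -log10 q of 2 were used, 16 of 25 regions (64.0%) were open in alpha, against 59.2%, 12 (48.0%) in beta, against 43.6%, and 12 (48.0%) in delta cells, against 58.6%. Without beta 1 the shares were 58.5%, 26.8%, and 53.7% of 41 regions, against 50.3%, 29.7%, and 49.7%. As deposited, regions around these beta cell genes were thus open in alpha cells nearly as often as in beta cells, and the beta count of 25 fell to 11 when beta 1 was left out, below the genome's share. It also fell to 13 when beta 3 was left out and to 21 when beta 2 was, where genome shares were not computed. Alpha and delta cells have 2 replicates and beta cells 3, so the rule of 2 is easier to pass in beta cells. Once 1 beta library is left out, every remaining one must hold a region.

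**Figure D4:**
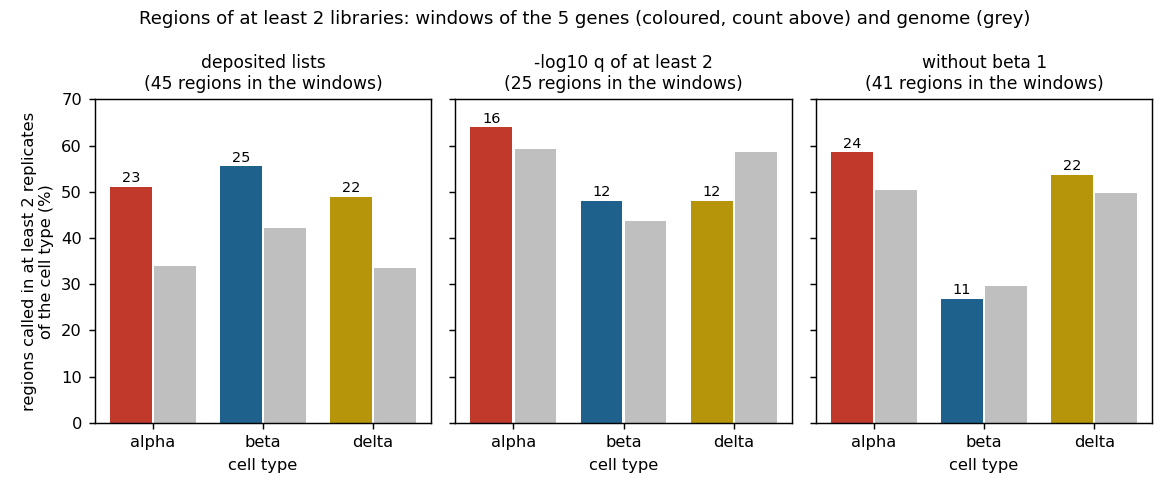
Share of regions that were open in a cell type, that is held by 2 or more of its replicates (vertical axis, percent), for the windows of the 5 genes (coloured bars, with the number of regions above) and for the genome (grey bars). Panels give the deposited lists, peaks reaching a -log10 q of 2, and the lists without beta 1. Beta cells lead among the deposited lists with 25 of 45 regions and come last without beta 1 with 11 of 41.

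The windows differed among themselves. In that of Pdx1, 7 of 9 regions were open in beta and 7 in delta cells but 3 in alpha cells. That of Nkx6-1 had 3, 2, and 1 of 8 regions open in alpha, beta, and delta cells, and 2 of the 8 lay at its promoter. Nkx2-2 had 6 of 10 in each cell type, Mnx1 5, 5, and 3 of 8, and Pax4 6, 5, and 5 of 10. The beta counts depend on which beta libraries are used. Without beta 1, the regions open in alpha, beta, and delta cells were 3, 1, and 7 of 8 for Pdx1, 3, 1, and 1 of 7 for Nkx6-1, 6, 2, and 6 of 10 for Nkx2-2, 6, 4, and 3 of 8 for Mnx1, and 6, 3, and 5 of 8 for Pax4. Per 100 kb the windows held 7.49 to 9.34 regions of 2 or more libraries, against a median of 6.15 and an upper quartile of 8.40 over protein-coding genes. Of the 45 regions, 10 were at promoters, 7 of them those of members, 9 in exons, 9 in introns, and 17 between genes. A further 115 regions were called in 1 library, 57 of them in beta 1.

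Among regions selective for one cell type against another, the largest class was open in delta and absent from alpha cells, with 5 of 45 (11.1%, against 5.13% of all regions). This difference was not tested. Open in beta and absent from alpha cells were 3 (6.67%, against 14.8% of all regions), and open in beta and absent from delta cells 4 (8.89%, against 13.2%). Open in alpha and absent from beta cells were 2 (4.44%, against 5.41%), in alpha and absent from delta cells 3 (6.67%, against 5.38%), and in delta and absent from beta cells 1 (2.22%, against 4.85%). Without beta 1 the counts that involve beta cells shifted, with 1 of 41 open in beta and absent from alpha (against 3.94%), 1 in beta and absent from delta (against 2.83%), 4 in alpha and absent from beta (against 16.0%), and 4 in delta and absent from beta cells (against 13.6%). No region was then open in beta cells alone (against 1.94%) and 3 in delta cells alone (against 4.71%). With all libraries, only 2 (4.44%) were open in beta cells and called in no other, against 10.7% of all regions. They lie 12.29 kb downstream of the start of Pdx1 and 49.23 kb upstream of Pax4, both rest on beta 1 and beta 3, and none of their peaks reached a -log10 q of 2. The 2 regions of alpha cells alone (4.44%, against 2.42%) lie 8.30 kb downstream and 9.32 kb upstream of the start of Pax4, and the 1 of delta cells alone (2.22%, against 2.06%) 36.87 kb upstream of it, and their peaks were likewise below that threshold. No region was open in alpha and delta cells and absent from beta cells, as 1.43% of all were. At a -log10 q of 2 or more, a single region was open in beta cells alone, the one 0.98 kb upstream of Mnx1, called in beta 2 and beta 3 (1 of 25 regions, against 2.60% of all). Both delta libraries held it just under that threshold, at 1.91 and 1.93 against 2.04 in beta 2, so it is not particular to beta cells in the deposited lists.

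Adding up all peaks of a window gave no adjusted p under 0.05 for a difference between cell types. The share of a list that fell in the window of a gene was 0.220 to 1.35 per 10000 peaks over the members and libraries, against library medians of 0.424 to 0.715 over all protein-coding genes. For Nkx6-1 the means were 0.503 ± 0.173 (SD, n = 2) in alpha, 0.583 ± 0.423 (SD, n = 3) in beta, and 0.353 ± 0.127 (SD, n = 2) in delta cells (exact permutation test, p = 0.886). The tests gave p = 0.571 for Nkx2-2, p = 0.295 for Mnx1, and p = 0.838 for Pax4 (exact permutation tests, all with adjusted p = 1). For Mnx1 the beta mean minus that of the other libraries was -0.0714, and it turned to 0.250 when only peaks reaching a -log10 q of 2 were counted (exact permutation test, unadjusted p = 0.0476). Of all genes, 952 of 21911 (4.34%) had an unadjusted p under 0.05 and none an adjusted one.

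Other transcription factors of the islet were read in the same way. Of 28 such genes, 22 had a TSS call in both alpha replicates (78.6%), 18 in 2 or more beta replicates (64.3%), and 22 in both delta replicates (78.6%), all above the shares of 56.8%, 56.1%, and 54.1% over protein-coding genes, and 14 had one in every library. Neurod1 and Isl1, both broad endocrine regulators, stood above 90 in all libraries, as Nkx6-1 did. Mafa, an activator of insulin genes in mature beta cells, stood between 92.6 and 98.9 in every library and did not set beta cells apart.

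Homeobox and paired box relatives of the members that work in other organs were the opposite. Of 20, only 4 had a TSS call in both alpha replicates, 4 in 2 or more beta replicates, and 2 in both delta replicates, with a median of 1 library per gene against 6 over protein-coding genes. Nkx6-2 was called in alpha 2 and delta 1, Nkx6-3 and Nkx2-1 in none, and Cdx2 in beta 3. Others were called more often, with Gsx1 in 4 libraries, Nkx2-4 and Nkx2-9 in 5 each, and Cdx4 in all 7.

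Genes that the members are known to control in beta cells were counted last. Of 14 annotated genes of a list of 15, 9 had a TSS call in both alpha replicates (64.3%), 11 in 2 or more beta replicates (78.6%), and 11 in both delta replicates (78.6%). Syt4, which encodes a synaptotagmin, stood between 74.6 and 98.5 in all libraries. Glp1r, the incretin receptor gene, was called in beta 1, beta 2, and both delta libraries and in no alpha library. Slc2a2, the glucose transporter gene, and G6pc2 lacked a TSS peak in all 7.

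The genes whose TSS percentiles were most like those of a member over the 7 libraries were named by the root mean square difference. For Nkx6-1 they were Faxc at 0.775 percentile points, Elf2 at 1.11, and Nipal1 at 1.20. For Pdx1 they were Fam155a at 3.02, Iqsec2 at 3.77, and Mbnl3 at 4.49, all with no TSS peak in beta 2. For Nkx2-2 they were Akr1b10 at 3.49, Gfod2 at 3.89, and Fam50a at 3.92. Mnx1 had the most distant neighbours, Mid1ip1 at 6.47, Lancl3 at 8.04, and Fbln5 at 8.997.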

How the data were processed

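Per the labels and the study's methods, single-end 50 bp reads were checked with FastQC, trimmed with Trimmomatic, aligned with Bowtie 2 to GRCm38 (mm10) without mitochondrial DNA, and cleared of duplicates marked with Picard and of blacklist regions, and the authors ran MACS2 library by library to call peaks. Versions and the calling threshold are not given in the sources used here. The deposited lists hold, per peak, a fold enrichment over the local background (a ratio), the -log10 p and -log10 q, and a score that is 10 times the -log10 p. No counts of reads are part of them, so the read-based differential test of the study was not repeated and the depth behind a peak is unknown. Each of these values is relative to its own library, so the tests used ranks within a list and shares of a list. The -log10 q values are given as description, and their order across libraries was not tested.

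Repeated intervals were counted once, and peaks overlapping by 1 bp were merged across the 7 lists. A region was open in a cell type when called in at least 2 replicates, and selective when also absent from every replicate of another. A TSS peak lies at most 1 kb from a gene start in GENCODE vM21. TSS percentiles and window shares were tested for every protein-coding gene by exact permutation of the libraries, without direction, with Benjamini-Hochberg adjustment. Replicates are labelled biological, from pooled mice. The members and gene lists were chosen with earlier results of these data known. Regions were named by rule: those within 1 kb of a member's 5′ end, up to 3 called in every library, and up to 3 called in one cell type alone or absent from one alone. The likeness rule took the 3 nearest genes. The other regions described were chosen after their values were seen. Alternatives limited the lists to a -log10 q of 2 or more or to 50000 peaks, required that a peak cover 0.5 or more of its region or that every replicate hold it, narrowed the windows to 20 kb, widened the TSS window to 3 kb, or took any transcript start. Others used undivided peak numbers, a replicate block, permutation within sex and, added after the data were seen, within lane, and each library left out. Python 3.11.15, numpy 2.4.6, pandas 2.3.3, pysam 0.24.0, and matplotlib 3.10.9 were used. The permutation tests and the merging of peaks were first tested on simulated data, and merging was also checked against bedtools 2.31.1.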

Additional observations from a re-analysis of the deposited data

How the results depend on the processing

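Of 289 alternatives to the results above, 248 stayed within 1.5 times the reported count or on the same side of an unadjusted p of 0.05. Part of this was fixed by design, because the results they vary had no p under 0.05 and some alternatives could not reach one. The smallest possible p was 0.167 with the replicate block, 0.0556 within lane, and 0.0667 with a beta library left out. Each p of an alternative is that of the test across the 3 cell types, also beside a difference of beta from the others. With a -log10 q of at least 2, 12 regions were open in beta and 12 in delta cells, and 1 was open in beta and absent from alpha and 1 in delta and absent from alpha cells. With 50000 peaks per list, 15, 16, and 12 regions were open in alpha, beta, and delta cells, and 1 was selective for alpha against beta, 1 for delta against alpha, and 0 for delta against beta cells. With a coverage of at least 0.5 of a region, 15 were open in alpha and 16 in beta cells, and 3 were selective for delta against beta cells. With 20 kb on each side, 13 were open in delta cells, and 2 were selective for delta against alpha and 0 for delta against beta cells. With every replicate required, 10 were open in beta cells, and 0 were selective for beta against alpha and 1 for beta against delta cells. Each of these rules leaves fewer peaks, replicates, or bases to call a region from. Pax4 had a TSS peak in 1 library with a TSS window of 3 kb or with any transcript start. Leaving out each library in turn gave 11 to 25 regions open in beta cells, 0 to 4 selective for alpha against beta, 3 to 6 for alpha against delta, 0 to 6 for beta against alpha, 1 to 6 for beta against delta, and 0 to 4 for delta against beta cells. Where an alpha or delta library is left out, the 1 that remains alone decides whether a region is open in or absent from its cell type. The rule of 2 replicates does not hold there. For regions open in beta cells, the count was 11 without beta 1, 13 without beta 3, and 21 without beta 2.

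For the Mnx1 TSS, the beta mean minus the mean of the other libraries was 27.9 percentile points. It was 57.9 with 50000 peaks per list, where the test across the 3 cell types gave an unadjusted p of 0.0286 (exact permutation test). With libraries exchanged within sex it was 27.9, and the same test gave an unadjusted p of 0.0278. With each library left out it was 20.6 to 35.8, and only the lists without delta 1 gave an unadjusted p under 0.05 (exact permutation test, p = 0.0333). Without any 1 beta library p was 0.0667 (exact permutation test), the smallest that this design allows. For the share of the Mnx1 window, beta minus the others was -0.0714 per 10000 peaks with the deposited lists. It was 0.250 with a -log10 q of at least 2. There the test across the 3 cell types gave an unadjusted p of 0.0476 (exact permutation test), and the delta libraries had the lowest shares. The cause of the turn was not tested. The sign of the beta difference also turned without a p under 0.05 in a further 18 of 126 tested alternatives.

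Replicate numbers are shared by the cell types, but deviations of same-numbered libraries correlated between -0.0978 and 0.467 over 21911 genes and not all above 0.1, so the numbers were not read as pairs. A shared number is not a shared pool of animals, as alpha 1 was female and beta 1 male. Pairing by shared animals was not tested. With the replicate block, which drops beta 3 and whose smallest p is 0.167, the difference was 26.8 for the Mnx1 TSS (exact permutation test, p = 0.167), -27.3 for that of Pdx1 (p = 1), and -0.386 for the share of the Pdx1 window (p = 0.167), and no result passed 0.05. Here too each p is that of the test across the 3 cell types. Read depth per peak and the signal outside peaks limit what an absent call can show, and the number of libraries limits every test.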
